A study of Mus musculus with 3 samples.

Results

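Genes of synaptic vesicles, of the SNARE membrane fusion machinery and of the presynaptic active zone were followed in mouse CAD cells, a catecholaminergic neuroblastoma line. They were taken by symbol from a list of 44, and 43 of these matched a row of the deposited table, which holds 27389 gene clusters. The symbol Vamp7 matched none, and its older symbol Sybl1 had 85 reads after both siRNAs, 113 after Ptbp1 siRNA and 111 in the control library; it lies outside the rule, was looked up after the other values were seen and enters no count. Poly(A)+ RNA was sequenced as paired reads of 36 bases, 72 h after siRNAs were introduced by lipid transfection. The cells had received ON-TARGETplus siRNAs specific for Ptbp1 and Ptbp2 together, siRNAs specific for Ptbp1 alone, or control siRNAs. Each of the 3 groups was 1 library of the same line, so no difference below has a replicate check and no p-value is given. The 95% intervals of read ratios are exact (Clopper-Pearson) and allow for counting error alone, not for variation from culture to culture.

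Synaptic vesicles fuse with the plasma membrane when a SNARE protein on the vesicle (synaptobrevin, encoded by Vamp genes) zips together with SNARE proteins of the target membrane (syntaxins, and SNAP-25 or its relatives). Neurons use Snap25, Stx1a and Vamp1 or Vamp2 for this, while most other cells use Snap23, other syntaxins and other Vamp genes for secretion and membrane traffic. Complexins, Munc18 and Munc13 proteins control the step, active zone scaffolds place the vesicles, NSF and its SNAP adaptors take spent SNARE complexes apart, and dynamin and its partners recover the membrane. Ptbp1 encodes a polypyrimidine tract binding protein that regulates splicing in non-neuronal cells, and Ptbp2 encodes a neuronal paralogue. The series concerned neuronal transcripts whose levels depend on regulated intron retention. Read totals of whole genes were analysed, in which RNA with and without a retained intron is summed.

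The clusters used held 14242557 reads after both siRNAs, 16899510 after Ptbp1 siRNA and 16011365 in the control library, so 1 CPM (the unit of reads relative to scaled library size) stood for 14.5, 17.2 and 15.5 reads in that order. Ptbp1 had 1516, 1486 and 7191 reads and Ptbp2 633, 3044 and 784 in the same order, so Ptbp2 RNA was not far below its control level after both siRNAs. About 16.3% of the annotated exon bases of Ptbp1 are shared with other genes. All 12 markers of catecholaminergic neuroblastoma cells that were looked up, such as Th and Dbh, reached 1 CPM. After both siRNAs 6 of them lay above the control and 6 below, from Dbh, 2.32-fold higher, to Stmn2, 1.40-fold lower. After Ptbp1 siRNA 4 lay above and 8 below, from Dbh, 1.98-fold higher, to Ddc, 1.64-fold lower. Glial markers summed to 5.12, 6.57 and 3.29 CPM in the 3 libraries, with Gfap, Aqp4, S100b and Mog at no more than 3 reads each. Fibroblast markers summed to 6.08, 10.7 and 13.1 CPM, with Col1a2 and Lum at no more than 3 reads, and blood and endothelial markers to 11.8, 16.9 and 22.4 CPM, with Ptprc and Hbb-b1 at no more than 3. The glial sum was higher in both knockdown libraries, and the fibroblast and the blood and endothelial sums were lower. The part of these differences in the results was not tested. In such bulk RNA, fewer cells of a type and less RNA per cell cannot be told apart.

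CAD cells expressed most of the listed genes, of which 8 are ubiquitous SNARE genes. Of the 43 genes, 37 reached 1 CPM in at least 1 library and 6 did not. Of the 27224 clusters used, 13465 reached it after both siRNAs or in the control library. The 6 were Sv2b, Unc13b, Cadps, Doc2b, Rph3a and Pclo, with 0 to 7 reads in any library. Unc13b, at 0 reads after Ptbp1 siRNA and 7 in the control library, was the only one of them whose interval against the control excluded 1 (ratio 0 to 0.624). Together the members held 0.291% of reads after both siRNAs, 0.287% after Ptbp1 siRNA and 0.263% in the control library. Per kilobase of exon, Snap25 was the highest member in the control library (149 CPM per kilobase), followed by Cplx1 (71.1), Napa (55.0), Vamp3 (50.0) and Rab3a (47.4). Syn3 (0.205) and Rims1 (0.571) were the lowest of the 37.

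As a group these genes did not move in 1 direction. The limit for a call was a 2-fold difference on the log2(CPM + 1) scale, with an interval that excluded 1 and at least 1 CPM in the higher library. After Ptbp1 siRNA, 1 of 37 members was called higher (Napb) and 0 lower, while 0.269% and 0.455% of 13399 clusters tested were called higher and lower (0.724% in all). After both siRNAs, 1 was called higher (Napb) and 1 lower (Snap23), beside 1.05% and 2.67% of 13465 clusters (3.73% in all). Between the knockdown libraries, 0 members were called in either direction, beside 0.431% of 13463 clusters (0.0891% higher). Their median difference on that scale was 0.03 with both siRNAs and 0.00 with Ptbp1 siRNA, against -0.01 over all clusters tested in each comparison. At a smaller 1.5-fold limit, 4 members were called after Ptbp1 siRNA (10.8%, beside 6.39% of all clusters) and 7 after both siRNAs (18.9%, beside 17.3%). Those shares lie near the background and are no result about the set as a whole. On the log2(CPM + 1) scale, 30 of the 37 stayed within 1.5-fold of the control in both knockdown libraries. The same share over all clusters was not computed, so this count is no result about the set either. Both comparisons use the same control library.

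**Figure D1:**
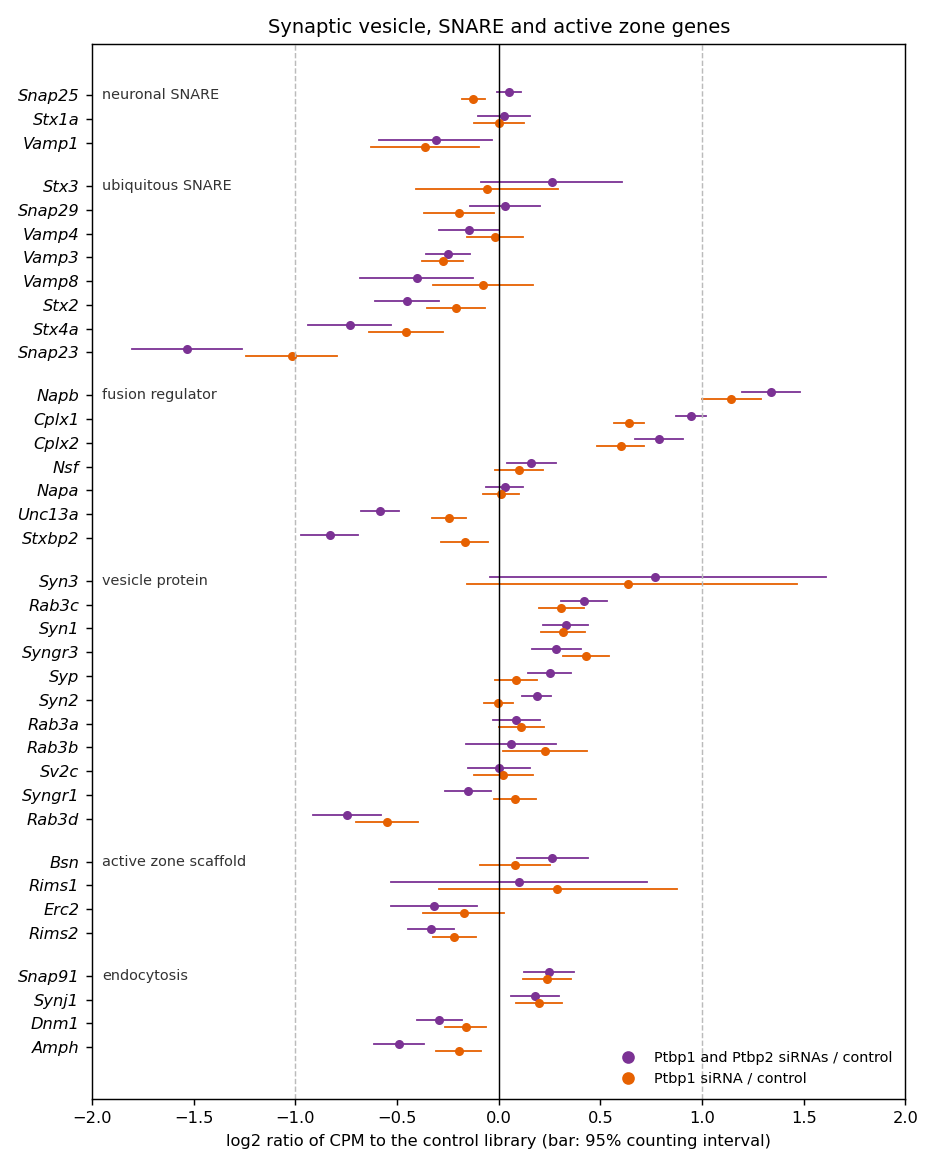
Log2 ratio of CPM to the control library for the 37 members that reached 1 CPM, by role, for both siRNAs (purple) and Ptbp1 siRNA (orange). Bars are 95% counting intervals of the single libraries, and dashed lines mark 2-fold. Napb lies beyond 2-fold on the higher side and Snap23 on the lower side, and Syn3, with the fewest reads, has the widest bars.

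The neuronal SNARE genes among the members differed little between the libraries. Snap25, which encodes the palmitoylated SNARE of neuronal plasma membranes (mm9 chromosome 2, 136539187 to 136608165), had 4720 reads after both siRNAs, 4976 after Ptbp1 siRNA and 4883 in the control library. Its CPM ratio to the control was 1.03 (interval 0.994 to 1.08) after both siRNAs and 0.917 (0.881 to 0.954) after Ptbp1 siRNA. Stx1a, the gene of a neuronal syntaxin (chromosome 5, 135499443 to 135526970), had 977, 1141 and 1027 reads in the same order. Its ratios were 1.02 (0.932 to 1.11) and 1.00 (0.918 to 1.09), so it stood at about the same level in all 3 libraries. Vamp1, a synaptobrevin gene of spinal and brainstem neurons (chromosome 6, 125165600 to 125192046), had 193, 221 and 256 reads. Vamp1 was 1.24-fold (1.02 to 1.5) lower with both siRNAs and 1.29-fold lower (1.07 to 1.55) with Ptbp1 siRNA. Of the neuronal SNARE genes, Vamp1 alone was lower than the control in both libraries with intervals that excluded 1, under this scaling. Vamp2, the synaptobrevin gene with a retained intron that the study followed, had 3510, 2723 and 1296 reads, a 2.90-fold (2.72 to 3.09) and 1.89-fold (1.77 to 2.02) higher level; it is no member and was chosen by the study.

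Of the ubiquitous SNARE genes, Snap23, Stx4a and Stx2 stood lowest against the control after both siRNAs. Snap23, the relative of Snap25 found in most cells (chromosome 2, 120393408 to 120426459), had 152 reads after both siRNAs, 258 after Ptbp1 siRNA and 470 in the control library. It was 2.89-fold lower after both siRNAs (2.40 to 3.49) and 2.02-fold lower after Ptbp1 siRNA (1.74 to 2.37). The second of these had a log2(CPM + 1) difference of -0.97, just short of the limit for a call. Between the knockdown libraries Snap23 was 1.43-fold lower after both siRNAs (1.16 to 1.76), so the 3 libraries ranked in 1 order with no overlap of the counting intervals. Stx4a, a plasma membrane syntaxin gene that works with Snap23 in regulated secretion (chromosome 7, 134985323 to 134992480), had 308, 444 and 548 reads in that order. It was 1.66-fold (1.44 to 1.92) and 1.37-fold lower (1.21 to 1.56) than in the control. Another plasma membrane syntaxin gene is Stx2 (chromosome 5, 129490443 to 129514448), with 563, 790 and 823 reads; its level was 1.37-fold (1.23 to 1.52) and 1.16-fold lower (1.05 to 1.28). Like Snap23 it was lowest after both siRNAs, but its difference was smaller.

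After both siRNAs the other ubiquitous SNARE genes lay closer to the control, while after Ptbp1 siRNA Vamp3 lay below Stx2. Vamp3, the cellubrevin gene of recycling endosomes (chromosome 4, 150421415 to 150432063), stood at 1287, 1503 and 1637 reads, a level 1.19-fold (1.1 to 1.28) and 1.21-fold lower (1.13 to 1.30). Vamp8, a gene of endosomal and secretory granule fusion (chromosome 6, 72335218 to 72340577), had 188, 280 and 266 reads, with ratios of 0.757 (0.624 to 0.915) and 0.947 (0.798 to 1.12). Vamp4, a gene of trans-Golgi and endosome traffic (chromosome 1, 164500855 to 164529210), had 702, 912 and 832 reads and log2 differences of -0.14 and -0.02. The Vamp8 interval excluded 1 after both siRNAs and held it after Ptbp1 siRNA, and each of these differences was under 1.5-fold. Snap29, a SNARE of endosomes and autophagosomes (chromosome 16, 17406094 to 17430920), had 552, 561 and 578 reads and differences of 0.03 and -0.19. Stx3, a syntaxin gene of epithelia and of ribbon synapses (chromosome 19, 11849609 to 11893894), was the lowest SNARE per kilobase, with 150, 143 and 134 reads and differences of 0.24 and -0.05. Its intervals held 1 in both comparisons.

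Set side by side, the medians of the neuronal and the ubiquitous SNARE genes lay 0.34 apart after both siRNAs and 0.07 apart after Ptbp1 siRNA on the log2 scale. The median log2 difference from the control after both siRNAs was 0.03 over the 3 neuronal genes (from -0.29 to 0.05) and -0.31 over the 8 ubiquitous ones (from -1.45 to 0.24). After Ptbp1 siRNA the medians were -0.12 (from -0.34 to 0.00) and -0.20 (from -0.97 to -0.02). The ranges of the classes overlap in both comparisons, and no test can be made between 3 and 8 genes of single libraries. In the Ptbp1 siRNA library all 11 SNARE genes had differences below 0, Stx1a by less than 0.01, but with scaling by library totals 8 of 11 did, so that count depends on the scaling. After both siRNAs 7 of 11 were below 0 under either scaling. Of all clusters tested, 48.5% lay above the control after Ptbp1 siRNA and 48.9% after both siRNAs. Summed per kilobase of exon, the neuronal genes stood at 188 CPM per kilobase after both siRNAs, 170 after Ptbp1 siRNA and 183 in the control library. The ubiquitous genes stood at 120, 131 and 158, so the quotient of the sums was 1.56, 1.30 and 1.16. Snap25 makes up most of the first sum and Vamp3 the largest share of the second. Vamp2, a neuronal synaptobrevin gene but no member, enters neither these sums nor the medians. It stood at 112, 73.1 and 38.7 CPM per kilobase in the same order.

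**Figure D2:**
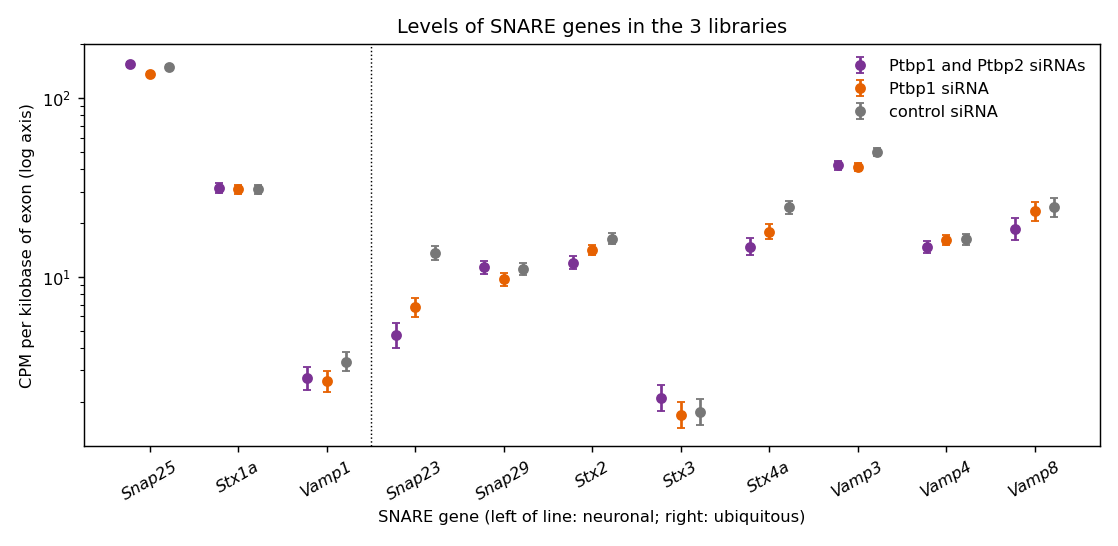
Levels of the 11 SNARE genes in CPM per kilobase of exon on a log axis, in the library with both siRNAs (purple), with Ptbp1 siRNA (orange) and with control siRNA (grey). Bars are exact 95% Poisson intervals of the counts. Snap25 and Stx1a sit at nearly the same level in all 3 libraries, while Snap23 and Stx4a are lowest with both siRNAs and highest with control siRNA.

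Gene-to-gene ratios inside a library do not depend on how libraries are scaled, and they differed from 1 paralogue pair to the next. Per kilobase, Snap25 stood 32.6-fold above Snap23 after both siRNAs, 20.2-fold after Ptbp1 siRNA and 10.9-fold in the control library. Relative to the control, the Snap25 to Snap23 ratio was 2.99 times as high after both siRNAs (2.47 to 3.63) and 1.86 times after Ptbp1 siRNA (1.58 to 2.18). With Snap29 in place of Snap23 the factors were 1.01 (0.893 to 1.15) and 1.05 (0.927 to 1.19), so no such shift was seen against Snap29. The Stx1a to Stx4a ratio was 1.69 (1.43 to 2.00) and 1.37 (1.18 to 1.60) times that of the control, and Stx1a to Stx2 1.39 (1.21 to 1.60) and 1.16 (1.02 to 1.32). For Stx1a to Stx3 both intervals held 1, at 0.850 (0.657 to 1.1) and 1.04 (0.804 to 1.35). Vamp1 against Vamp3, Vamp4 and Vamp8 gave factors from 0.894 to 1.07 after both siRNAs, with all 3 intervals holding 1. After Ptbp1 siRNA they ranged from 0.788 to 0.940, and only that against Vamp4 had an interval below 1 (0.639 to 0.970). Of the 8 SNARE pairs measured, 3 therefore had a higher neuronal share in both knockdown libraries with intervals above 1. Those 3 share Snap25 or Stx1a and differ in Snap23, Stx2 and Stx4a. Vamp2 entered none of the pairs.

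**Figure D3:**
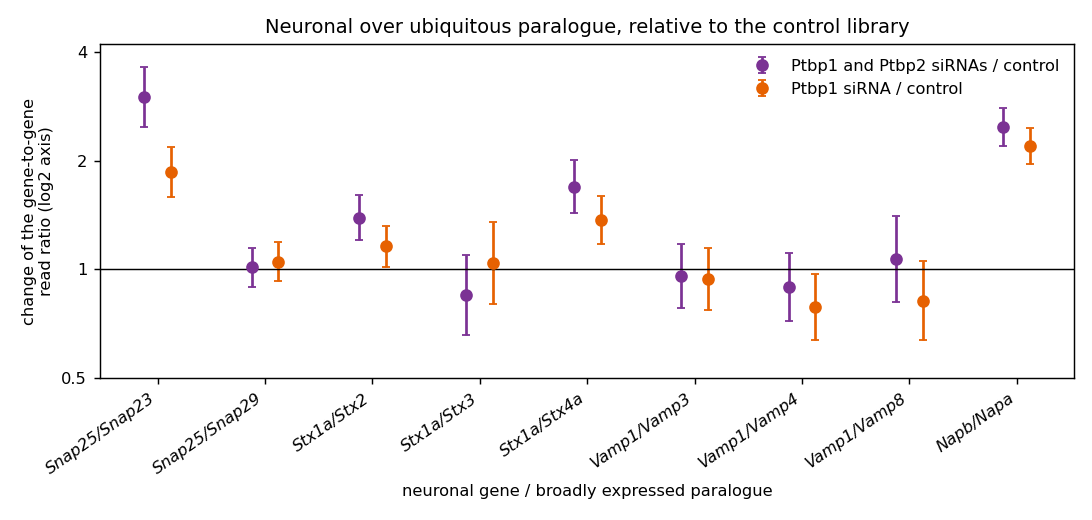
Change of the read ratio of a neuronal gene to a broadly expressed paralogue, relative to the control library, on a log2 axis, for both siRNAs (purple) and Ptbp1 siRNA (orange). Bars are exact conditional 95% intervals from the counts. Snap25/Snap23 (2.99 after both siRNAs) and Napb/Napa (2.48) stand highest, and the Vamp1 pairs lie around 1.

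The clearest single gene on the higher side was Napb, which encodes beta-SNAP, the brain form of the adaptor that brings NSF to spent SNARE complexes. Napb (chromosome 2, 148519724 to 148558157) had 1327 reads after both siRNAs, 1380 after Ptbp1 siRNA and 562 in the control library. It was 2.53-fold (2.29 to 2.79) and 2.21-fold higher (2.00 to 2.44) than in the control, with log2(CPM + 1) differences of 1.31 and 1.12. Its widely expressed paralogue Napa, which encodes alpha-SNAP (chromosome 7, 16683993 to 16703325), had 1894, 2225 and 1986 reads and ratios of 1.02 (0.958 to 1.09) and 1.01 (0.949 to 1.07). Per kilobase, Napb stood at 0.374 of Napa after both siRNAs, 0.332 after Ptbp1 siRNA and 0.151 in the control library, so Napa remained the more abundant of the pair. Nsf, the ATPase gene itself (chromosome 11, 103683098 to 103815371), had 1128, 1287 and 1080 reads and differences of 0.16 and 0.10. Thus within the disassembly machinery Napb differed by more than 2-fold while Napa and Nsf stayed within 1.2-fold.

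Both complexin genes among the members, Cplx1 and Cplx2, were also higher, short of the limit for a call. Cplx1, whose product clamps and promotes fusion by binding assembled SNARE complexes (chromosome 5, 108947579 to 108978952), had 4146 reads after both siRNAs, 3987 after Ptbp1 siRNA and 2304 in the control library. It was 1.93-fold (1.83 to 2.03) and 1.56-fold higher (1.48 to 1.64), and 1.24-fold higher after both siRNAs than after Ptbp1 siRNA (1.18 to 1.29). Cplx2, the second brain complexin (chromosome 13, 54472714 to 54485279), stood at 1532, 1601 and 951 reads, which was 1.72-fold (1.59 to 1.87) and 1.52-fold higher (1.40 to 1.64). Napb, Cplx1 and Cplx2 were the 3 members called higher at 1.5-fold in each knockdown library, where 7.23% and 2.93% of all clusters were called higher after both siRNAs and after Ptbp1 siRNA. With library-total scaling Cplx1 passed the 2-fold limit after both siRNAs.

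Stxbp2 and Unc13a were the fusion regulators that stood on the lower side among members above 1 CPM. Stxbp2, the Munc18 gene of non-neuronal secretory cells (chromosome 8, 3631161 to 3643645), had 638 reads after both siRNAs, 1202 after Ptbp1 siRNA and 1215 in the control library. It was 1.78-fold lower after both siRNAs (1.62 to 1.96) but 1.12-fold lower after Ptbp1 siRNA (1.04 to 1.22). Between the knockdown libraries it was 1.58-fold lower after both siRNAs (1.44 to 1.75), and it was the 1 member called at 1.5-fold in that comparison, where 5.35% of all clusters were called (3.52% lower and 1.83% higher). Unc13a, the Munc13-1 vesicle priming gene (chromosome 8, 74153323 to 74195624), had 1571, 2365 and 2521 reads. Unc13a was 1.5-fold (1.41 to 1.60) and 1.18-fold lower (1.12 to 1.25). A second row with that symbol, just downstream on the same strand (74148812 to 74153073), had 711, 902 and 904 reads. Relative to the control, that row was less reduced after both siRNAs than the row kept. Summing the rows moved the Unc13a log2 difference by up to 0.095. The paralogue Unc13b had 4, 0 and 7 reads, so Unc13a was the Munc13 gene that these cells mainly expressed among the members.

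**Figure D4:**
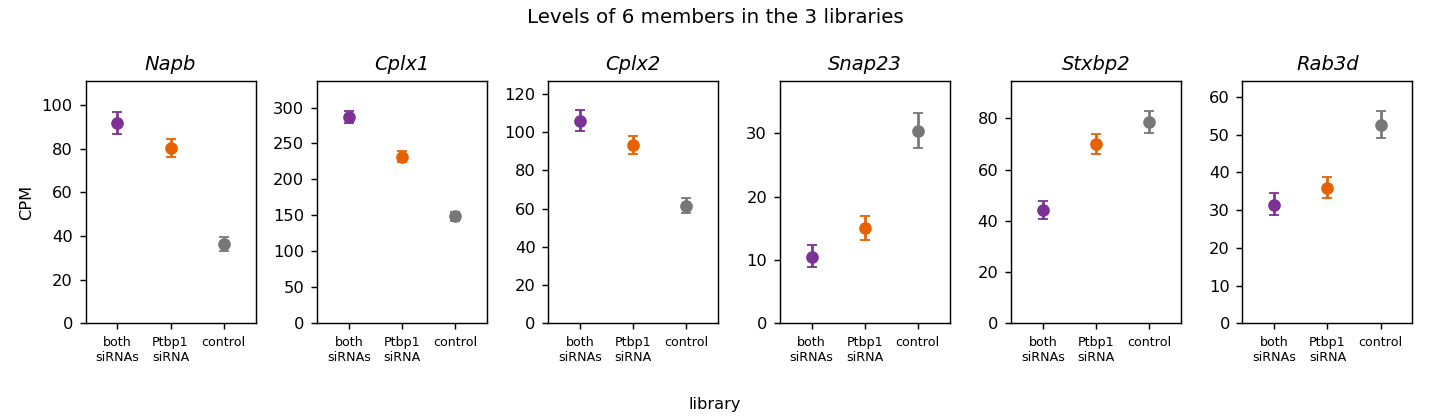
CPM of 6 members in the library with both siRNAs, with Ptbp1 siRNA and with control siRNA, with exact 95% Poisson intervals of the counts and axes from 0. Napb, Cplx1 and Cplx2 are higher in both knockdown libraries and Snap23 and Rab3d lower, while Stxbp2 with both siRNAs lies well below its level in the other libraries.

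Because the study concerned introns that PTB proteins keep in neuronal transcripts, the reference bases just before the last exon are shown for Vamp2, the study's gene, and for 5 members named above. Each line holds the 100 bases of the last intron that end at its final AG, read from the mm9 genome on the transcribed strand, in the GENCODE transcript with the most exons. Capitals mark TCTT and CTCTCT, short pyrimidine motifs known to be bound by PTB proteins, which can overlap each other and were searched on the transcribed strand alone.
Vamp2 (chr11:68904052-68904151, plus strand): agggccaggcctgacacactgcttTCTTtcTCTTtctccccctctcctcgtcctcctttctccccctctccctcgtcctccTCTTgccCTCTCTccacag
Napb (chr2:148523243-148523342, minus strand): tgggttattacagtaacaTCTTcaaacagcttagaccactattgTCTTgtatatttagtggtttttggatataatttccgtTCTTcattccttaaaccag
Napa (chr7:16701713-16701812, plus strand): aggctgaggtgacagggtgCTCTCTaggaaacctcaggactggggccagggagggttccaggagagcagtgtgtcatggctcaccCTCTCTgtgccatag
Cplx1 (chr5:108949346-108949445, minus strand): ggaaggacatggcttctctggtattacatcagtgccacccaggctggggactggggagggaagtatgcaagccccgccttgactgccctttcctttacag
Cplx2 (chr13:54480776-54480875, plus strand): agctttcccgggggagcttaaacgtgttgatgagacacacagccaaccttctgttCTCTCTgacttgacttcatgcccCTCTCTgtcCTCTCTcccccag
Snap23 (chr2:120424912-120425011, plus strand): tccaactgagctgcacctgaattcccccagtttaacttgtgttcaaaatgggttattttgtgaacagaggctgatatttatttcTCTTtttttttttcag

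In these windows Vamp2 held 3 TCTT and 1 CTCTCT and was 82% pyrimidine, and Napb held 3 TCTT and 0 CTCTCT at 59% pyrimidine. Cplx2 held 3 CTCTCT and Cplx1 neither motif. Napa held 2 CTCTCT. A link between these motifs and the levels of the genes was not tested. Over 17856 protein-coding genes, 67.2% of such windows held TCTT at least once, 10.6% held it 3 or more times and 12.7% held CTCTCT. Of 39 members whose window was examined, 27 held TCTT, 4 held it 3 or more times and 8 held CTCTCT, with a median pyrimidine share of 58% against 56% over all genes. A match is a description of these letters and not a binding site, and the read totals do not measure the introns.

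Most vesicle protein genes lay slightly above the control. Of the 11 that reached 1 CPM, 9 lay above the control in each knockdown library, with median log2 differences of 0.19 after both siRNAs and 0.11 after Ptbp1 siRNA. Of all clusters tested, 48.9% and 48.5% lay above the control in these comparisons. Intervals stood above 1 for 5 of the 11 in each library, but for 7 after both siRNAs and 8 after Ptbp1 siRNA with library-total scaling. Under that scaling 9 and 10 of the 11 lay above the control. Syn1, the gene of a synapsin that tethers vesicles to the cytoskeleton, stood at 1421, 1676 and 1211 reads, a level 1.26-fold (1.16 to 1.36) and 1.25-fold higher (1.16 to 1.34). Its relative Syn2, the highest synapsin gene per kilobase, had 3340, 3487 and 3143 reads and differences of 0.19 and 0.00. Syn3 rested on 35, 38 and 22 reads, and its intervals held 1. Syp, the gene of the vesicle membrane protein synaptophysin, had 1548, 1643 and 1393 reads and differences of 0.25 and 0.09, and 16.8% of its exon bases are shared with other genes. Syngr3, a synaptogyrin gene of vesicle membranes, stood at 1214, 1597 and 1068 reads, which was 1.22-fold (1.12 to 1.32) and 1.35-fold higher (1.24 to 1.46). Its paralogue Syngr1 had 1200, 1675 and 1427 reads and differences of -0.15 and 0.08, so the 2 synaptogyrins lay on opposite sides of the control after both siRNAs. Sv2c, a vesicle glycoprotein gene, had 688, 830 and 736 reads with differences of 0.00 and 0.02, while Sv2a, which the study followed, had 617, 861 and 430 and was 1.54-fold and 1.80-fold higher.

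Among the Rab3 GTPase genes, which guide vesicles to release sites, the member of non-neuronal secretory cells differed from the neuronal ones. Rab3d, known from exocrine and other secretory granules (chromosome 9, 21711956 to 21722566), had 455 reads after both siRNAs, 619 after Ptbp1 siRNA and 816 in the control library. It was 1.68-fold (1.49 to 1.88) and 1.46-fold lower (1.32 to 1.63). Rab3c, a Rab3 gene of the brain, stood at 1426, 1567 and 1140 reads and thus 1.34-fold (1.24 to 1.45) and 1.24-fold higher (1.15 to 1.34). The main brain form Rab3a had 1227, 1485 and 1237 reads with differences of 0.09 and 0.11, and Rab3b had 338, 451 and 347 with 0.06 and 0.22. Rab3d was thus the only Rab3 gene below the control in either library, under each of the scalings tried. Together Snap23, Stx4a, Stxbp2 and Rab3d were the 4 members called lower at 1.5-fold after both siRNAs, where 10.0% of all clusters were called lower. Snap23 was also called lower at 1.5-fold after Ptbp1 siRNA, where 3.46% of clusters were.

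Active zone scaffolds, which anchor vesicles and calcium channels at release sites, showed small differences in both directions. Bsn, the bassoon gene, had 573, 600 and 511 reads and differences of 0.26 and 0.08, with 11.4% of its exon bases shared with other genes. Rims2, a RIM scaffold gene, stood at 1087, 1399 and 1465 reads, a level 1.26-fold (1.16 to 1.36) and 1.16-fold lower (1.08 to 1.25). Erc2, the ELKS family gene of the active zone, had 321, 422 and 428 reads and differences of -0.30 and -0.17. Rims1 rested on 45, 61 and 45 reads, with intervals that held 1, and Pclo, the piccolo gene, was at 4, 2 and 0 reads over an exonic length of 19192 bases.

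The endocytic members split evenly. Snap91, the AP180 clathrin adaptor gene of neurons, stood at 1131, 1336 and 1020 reads, a level 1.19-fold (1.09 to 1.29) and 1.18-fold higher (1.09 to 1.28). Synj1, the synaptojanin phosphatase gene that helps uncoat vesicles, had 1187, 1431 and 1122 reads and differences of 0.18 and 0.20. Amph, the amphiphysin gene that brings dynamin to vesicle necks, stood at 919, 1339 and 1381 reads, a level 1.40-fold (1.29 to 1.53) and 1.15-fold lower (1.06 to 1.24). Dnm1, the neuronal dynamin gene, stood at 1181, 1535 and 1547 reads, a level 1.22-fold (1.13 to 1.32) and 1.12-fold lower (1.04 to 1.20). Its ubiquitous paralogue Dnm2 had 852, 1254 and 1301 reads and a difference of -0.51 after both siRNAs, so the Dnm1 to Dnm2 ratio was 1.17 times that of the control (1.04 to 1.31), against 1.03 after Ptbp1 siRNA with an interval that held 1 (0.926 to 1.14). Relative to the control, the ratio of Snap91 to Picalm was 1.30 after both siRNAs (1.19 to 1.43) and 1.32 after Ptbp1 siRNA (1.20 to 1.44). That of Syp to Sypl was 1.43 (1.24 to 1.64) and 1.26 (1.1 to 1.43). The ratio of Erc2 to Erc1 was 0.743 after both siRNAs (0.630 to 0.877) and 0.933 after Ptbp1 siRNA (0.799 to 1.09). Syngr1 to Syngr2 gave 0.774 (0.693 to 0.865) and 0.961 (0.865 to 1.07), while Syngr3 to Syngr2 gave 1.05 (0.933 to 1.17) and 1.22 (1.1 to 1.37). For Amph over Bin1 and Synj1 over Synj2 the intervals held 1 in both comparisons.

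Other genes of the pathway were read from lists of related SNAREs, paralogues, vesicle filling, clathrin and docking genes, and few of them were called at 2-fold. Of all clusters tested, 1.05% were called higher and 2.67% lower after both siRNAs, and 48.9% lay above the control. After Ptbp1 siRNA these shares were 0.269%, 0.455% and 48.5%. Of 21 further SNARE genes of other membranes, 0 were called in either comparison with the control. Their medians were -0.24 after both siRNAs and -0.13 after Ptbp1 siRNA, with 15 and 17 below 0. At 1.5-fold, 5 of them (23.8%) were called lower and 0 higher after both siRNAs, beside 10.0% and 7.23% of all clusters. After Ptbp1 siRNA 0 were called at that limit, beside 6.39% of all clusters. Stx11, a syntaxin gene of immune cells, had 105 reads after both siRNAs, 196 after Ptbp1 siRNA and 239 in the control library, a difference of -0.99 after both. Of 18 vesicle filling genes tested, 1 was called higher after both siRNAs, with medians of 0.11 and 0.05. This was Slc18a3, the vesicular acetylcholine transporter gene, with 600, 432 and 233 reads and a 2.76-fold (2.37 to 3.22) and 1.67-fold higher level (1.42 to 1.97). Slc18a3 lies inside an intron of Chat, and its share of exon bases with other genes was not computed. Slc18a1, a vesicular monoamine transporter gene, stood at 33, 95 and 78 reads, a level 2.21-fold lower after both siRNAs (1.45 to 3.43), with a difference of -0.88 that missed the limit. Of 19 clathrin and recycling genes, 1 was called lower after both siRNAs, Eps15, an endocytic adaptor gene with 615, 1501 and 1559 reads, 2.37-fold lower (2.16 to 2.6). Eps15 was also called lower after both siRNAs than after Ptbp1 siRNA, by 2.05-fold (1.87 to 2.26), where 0.342% of all clusters were. Cltb, a clathrin light chain gene, had 765, 833 and 456 reads and differences of 0.82 and 0.70. Of 26 docking and priming genes outside the members 0 were called after both siRNAs, with a median of -0.06 and 15 below 0. Among them Rab27a, a Rab gene of secretory granule docking, had 342, 651 and 569 reads and was 1.55-fold lower after both siRNAs (1.36 to 1.78), past the 1.5-fold limit. Its ratio after Ptbp1 siRNA was 1.03 (0.919 to 1.15). Apba1, the gene of the Munc18-binding adaptor Mint1, had 569, 544 and 395 reads and ratios of 1.54 (1.35 to 1.76) and 1.24 (1.09 to 1.41). Of 8 broadly expressed paralogues 0 were called, with a median of -0.20.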

How the data were processed

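Per the file headers, the authors counted reads over trimmed gene clusters of mm9, the build that the submitters' processing notes also name; no aligner or counting tool is given in the sources used here. The deposited read values are whole numbers that fall below 0 in 38 clusters, so they are net values and carry the unit score rather than counts. Those clusters and 127 without length were left out, and the other 27224 were used like counts, so that intervals are only approximate. RPKM values deposited by the authors were tried as an alternative. Whether pairs or reads were counted is not given, amplified reads are not independent molecules, and no strand-marking step is described, so genes with overlapping exons are uncertain. Members and lists were chosen with earlier results of these data known. Of several rows for a symbol the one with the highest mean was kept. Scaling factors were trimmed means of M values over all clusters (30% of M and 5% of A trimmed; factors 1.02 for both siRNAs, 1.02 for Ptbp1 siRNA and 0.967 for control), with a pseudocount of 1 CPM and a filter of 1 CPM in the higher library. Differences on the log2(CPM + 1) scale understate those of low genes, while folds and ratios are of CPM without the pseudocount. Intervals are at 95%. Starts are printed from 1. All SNARE members are described with their values; in the other roles those called, or else the 4 with the largest difference after both siRNAs, come first, and further members were added after their values were seen. Exon sharing and introns came from GENCODE vM1 on NCBIM37, the same build, where all 43 members overlapped the gene of their name. Python 3.11.15, numpy 2.4.6, scipy 1.17.1 and pandas 2.3.3 were used, and the calling procedure was tested on simulated data. A glial marker and an intron window are not reported here.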

Additional observations from a re-analysis of the deposited data

How the results depend on the processing

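The alternatives were pseudocounts of 0.1 and 5 CPM, no filter or one of 5 CPM, median-of-ratios or library-total scaling, the deposited RPKM with a pseudocount of 1, summed rows per symbol, and call limits of 1.5-fold and 3-fold. The number of members called after Ptbp1 siRNA became 2 with a pseudocount of 0.1 CPM, where Snap23 joined Napb. A 1.5-fold limit gave 4 after Ptbp1 siRNA, 7 after both siRNAs and 1 between the knockdown libraries, and a 3-fold limit gave 0 in each comparison. Library-total scaling raised log2 CPM ratios to the control by 0.07, and differences of log2(CPM + 1) by less in low genes, and gave member medians of 0.07 after Ptbp1 siRNA and 0.10 after both siRNAs. The neuronal minus ubiquitous SNARE median after both siRNAs ranged from 0.29 to 0.35. Of 888 single-gene values under an alternative, 883 moved no further than the distance from the main value to the farther end of its counting interval. The other 5 moved further. Changes of sign were counted for called genes alone, and the largest move under any alternative, 0.373, was too small to reverse one. Uncalled members did change side, as 18 of 37 lay above the control after Ptbp1 siRNA and 22 with library-total scaling. The filter settings cannot move a single-gene difference, and summed rows can move only that of Unc13a. Many of the 883 were therefore fixed in advance, and the count overstates how stable the values are. Syp, Syn3 and Bsn share at least 10% of their exon bases with other genes, and none of them was called. Leaving them out, a check chosen after seeing the data, could therefore not change a call and says nothing about the calls. With 1 library per group, neither leaving out a replicate nor any test was possible. No paired analysis was possible because each group has 1 library. Of the members above 1 CPM, counting error limits Syn3 and Rims1 most.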
